A study of Mus musculus with 18 samples.

Results

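Ly6 family surface proteins are described here through 5 genes, Ly6e, Ly6i, Ly6a, Ly6c1 and Ly6c2, out of 13598 genes with a value in the deposited files. The 5 genes were chosen by their measured levels in these same libraries, so their values are given as a description, without p-values. Rows under a gene's own mouse Ensembl number were found for 3 of the 5, Ly6e, Ly6i and Ly6c2, and all 3 passed the filter on low values that 9707 genes passed. No row in any of the 18 libraries carries the number of Ly6a or Ly6c1, and these genes could be read only by the position of their first exons.

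The libraries are mouse macrophages from the peritoneal cavity, elicited with thioglycolate, of mice of the C57BL/6 background with wild-type TLR4 (TLR4-WT) or with the mutant forms TLR4-K730R or TLR4-K810R. In each mutant a lysine of the TIR domain, the part of Toll-like receptor 4 that faces the cytoplasm and binds its adaptor proteins, was replaced by arginine in the germ line. Age, sex and whether the mutations were homozygous were not given in the sources used here. Cells of each genotype were mock-treated or treated with LPS, a bacterial cell wall component sensed by TLR4, at 100 ng/ml for 6 hours, with 3 libraries in each of 6 groups. Nothing states that the libraries came from separate animals, so p-values measure the spread between these libraries, which may be technical. The macrophage genes Lyz2 (lowest library 5944 FPKM), Csf1r (277 FPKM) and Adgre1 (148 FPKM) were present in every library, while Cd14, also expressed by macrophages, was listed at 0 in 17 of 18 libraries, which can be a failed estimate. Of 10 macrophage genes listed, 8 had a value. Their summed level was lower with LPS, from 13640 to 14980 FPKM in mock and 7524 to 9669 FPKM in LPS libraries of TLR4-WT. It was 13840 to 14920 and 7838 to 10000 FPKM for TLR4-K730R, and 11770 to 14140 and 9303 to 10270 FPKM for TLR4-K810R. Values are FPKM, fragments per kilobase of transcript scaled to the library's total, without read counts, so the depth is unknown.

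Ly6 proteins are small molecules with a compact disulfide-bonded fold, most of them held on the outer cell surface by a glycosylphosphatidylinositol (GPI) lipid anchor. In the mouse, Ly6c2 and its near copy Ly6c1 encode the Ly-6C antigen, high on inflammatory monocytes, and Ly6a encodes Sca-1, a marker of blood stem cells that also appears on activated lymphocytes and vessels. Ly6e is induced by type I interferon and is known for restricting the entry of coronaviruses, and Ly6i is a relative of Ly6a and Ly6c. Several of these genes are known to respond to interferons, which macrophages produce after TLR4 engages its adaptor TRIF.

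The genes lie together on chromosome 15 (GRCm38 coordinates, GENCODE annotation), within 156920 bases. Ly6e (ENSMUSG00000022587) is on the plus strand at chr15:74955051-74959905. The other genes are on the minus strand, Ly6i (ENSMUSG00000022586) at chr15:74979534-74983430, Ly6a (ENSMUSG00000075602) at chr15:74994877-74998031, Ly6c1 (ENSMUSG00000079018) at chr15:75044018-75048830 and Ly6c2 (ENSMUSG00000022584) at chr15:75108158-75111970.

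The start of the coding sequence is shown for 4 of the genes because their likeness bears on how reads could be divided among them. Each line gives the first 150 coding bases of the GENCODE transcript, 5′ to 3′, in lower case, and capitals mark bases that differ from Ly6c2.
Ly6c2: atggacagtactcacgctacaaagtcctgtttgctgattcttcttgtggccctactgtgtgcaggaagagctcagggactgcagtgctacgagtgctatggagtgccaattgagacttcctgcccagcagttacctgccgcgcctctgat
Ly6c1: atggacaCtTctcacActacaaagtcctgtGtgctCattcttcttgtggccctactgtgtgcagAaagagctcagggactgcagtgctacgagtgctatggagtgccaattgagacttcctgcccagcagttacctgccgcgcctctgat
Ly6a: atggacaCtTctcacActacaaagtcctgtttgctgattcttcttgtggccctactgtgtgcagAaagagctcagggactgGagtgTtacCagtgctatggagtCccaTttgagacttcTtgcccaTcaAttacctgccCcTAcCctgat
Ly6i: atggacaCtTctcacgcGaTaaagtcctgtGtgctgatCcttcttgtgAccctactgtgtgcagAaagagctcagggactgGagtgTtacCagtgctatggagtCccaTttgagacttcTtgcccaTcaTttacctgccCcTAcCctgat

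In these stretches Ly6c1 differed from Ly6c2 at 6 bases, Ly6a at 16 and Ly6i at 20. Over the whole coding sequence Ly6c1 and Ly6c2 (393 bases each) were 97.7% identical, with 9 substitutions and one identical run of 188 bases. Ly6a and Ly6i (402 bases each) were 86.3% identical to each other, and Ly6c2 shared 81.6% with Ly6a and 81.3% with Ly6i. Ly6e stood apart, with 50.9% identity to Ly6c2, where no identical run was longer than 6 bases. Its longest identical run with any of the other genes was 8 bases, with Ly6a. The files assemble Ly6a, Ly6c1 and Ly6c2 into one locus under the number of Ly6c2, and 8.12% of the first-exon FPKM under that number lies outside Ly6c2. Values of Ly6c2, Ly6c1 and Ly6a are therefore uncertain where reads fit more than 1 of them.

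Promoter sequences from RefSeq (GRCm38.p6) were at hand for 2 of the 5 genes, Ly6c1 and Ly6c2. The 250 bases before each annotated start are shown on the minus strand, 5′ to 3′, because the pair differs little in coding sequence. Capitals mark matches to the motifs listed after them.
Ly6c1, chr15:75048838-75049087: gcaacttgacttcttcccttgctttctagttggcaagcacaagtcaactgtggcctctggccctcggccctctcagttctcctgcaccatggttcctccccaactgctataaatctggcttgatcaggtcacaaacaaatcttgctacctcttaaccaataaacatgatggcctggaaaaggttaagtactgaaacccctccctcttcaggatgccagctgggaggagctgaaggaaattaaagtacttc
Ly6c2, chr15:75111972-75112221: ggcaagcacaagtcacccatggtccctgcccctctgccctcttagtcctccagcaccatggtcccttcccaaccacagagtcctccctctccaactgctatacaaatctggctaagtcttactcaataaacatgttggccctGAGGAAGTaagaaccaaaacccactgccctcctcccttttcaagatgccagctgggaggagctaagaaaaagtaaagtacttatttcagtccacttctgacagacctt

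Both strands were searched for 4 motifs, whose patterns were set after the sequences were seen. The Ly6c2 window held 1 match to the PU.1 pattern GAGGAAGT, found in 2.44% of 32851 mouse promoter windows of this length, and the Ly6c1 window none. Neither window matched the STAT pattern TTCNNNGAA, present in 7.02% of windows, the interferon response pattern AANNGAAA, in 21.3%, or the NF-κB pattern GGNNNTTCC, in 15.7%. A match is a run of letters, and the data do not show whether a factor binds there.

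Ly6e had the highest level of the 5 genes in every group, and it was higher with LPS in each genotype. Mock-treated TLR4-WT libraries had 239, 233 and 216 FPKM and LPS-treated ones 739, 742 and 614 FPKM. TLR4-K730R libraries had 107, 92.6 and 92.0 FPKM without LPS and 430, 564 and 551 FPKM with it. TLR4-K810R libraries had 107, 84.2 and 97.7 FPKM without LPS and 514, 542 and 535 FPKM with it. All LPS libraries lay above all mock libraries, and among the mock groups both mutants lay below TLR4-WT without overlap. In order of mean level the mock groups of TLR4-K810R (96.2 ± 11.2 FPKM) and TLR4-K730R (97.3 ± 8.66 FPKM) overlapped, TLR4-WT mock came next (229 ± 11.8 FPKM), the LPS groups of TLR4-K730R (515 ± 74.1 FPKM) and TLR4-K810R (530 ± 14.3 FPKM) overlapped, and TLR4-WT with LPS was highest (698 ± 73.1 FPKM, SD, n = 3 in each group). Among the 9707 genes that passed the filter, Ly6e ranked 57 by mean FPKM in LPS-treated TLR4-WT and 475 in mock-treated TLR4-K810R.

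Ly6c2, the Ly-6C gene, had the widest range on the log2 scale of the 3 genes with rows of their own. It was listed at 32.2, 37.5 and 27.7 FPKM in mock-treated TLR4-WT and at 293, 320 and 461 FPKM after LPS. In TLR4-K730R the mock libraries had 22.9, 27.1 and 25.4 FPKM and the LPS libraries 420, 427 and 331 FPKM. In TLR4-K810R the mock libraries had 9.42, 10.8 and 5.27 FPKM and the LPS libraries 204, 264 and 349 FPKM. Mock-treated TLR4-K810R stood below the other mock groups without overlap, while the highest TLR4-K730R mock library (27.1 FPKM) nearly met the lowest of TLR4-WT (27.7 FPKM). The 3 LPS groups followed the order TLR4-K810R (272 ± 72.9 FPKM), TLR4-WT (358 ± 90.3 FPKM) and TLR4-K730R (393 ± 53.1 FPKM, SD, n = 3 each), and neighbours in that order overlapped.

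Ly6i was the lowest of these 3 genes. Mock-treated TLR4-WT had 9.32, 12.5 and 10.5 FPKM and LPS-treated TLR4-WT 61.1, 45.8 and 75.0 FPKM. In TLR4-K730R it was at 4.87, 6.08 and 3.02 FPKM without LPS and at 75.5, 56.2 and 52.2 FPKM with it. In TLR4-K810R it was at 0.882, 1.80 and 1.23 FPKM without LPS and at 29.8, 31.9 and 40.0 FPKM with it. The 3 mock groups did not overlap, with TLR4-K810R lowest and TLR4-WT highest, and after LPS the TLR4-K810R libraries lay below those of the other genotypes, which overlapped each other.

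**Figure D1:**
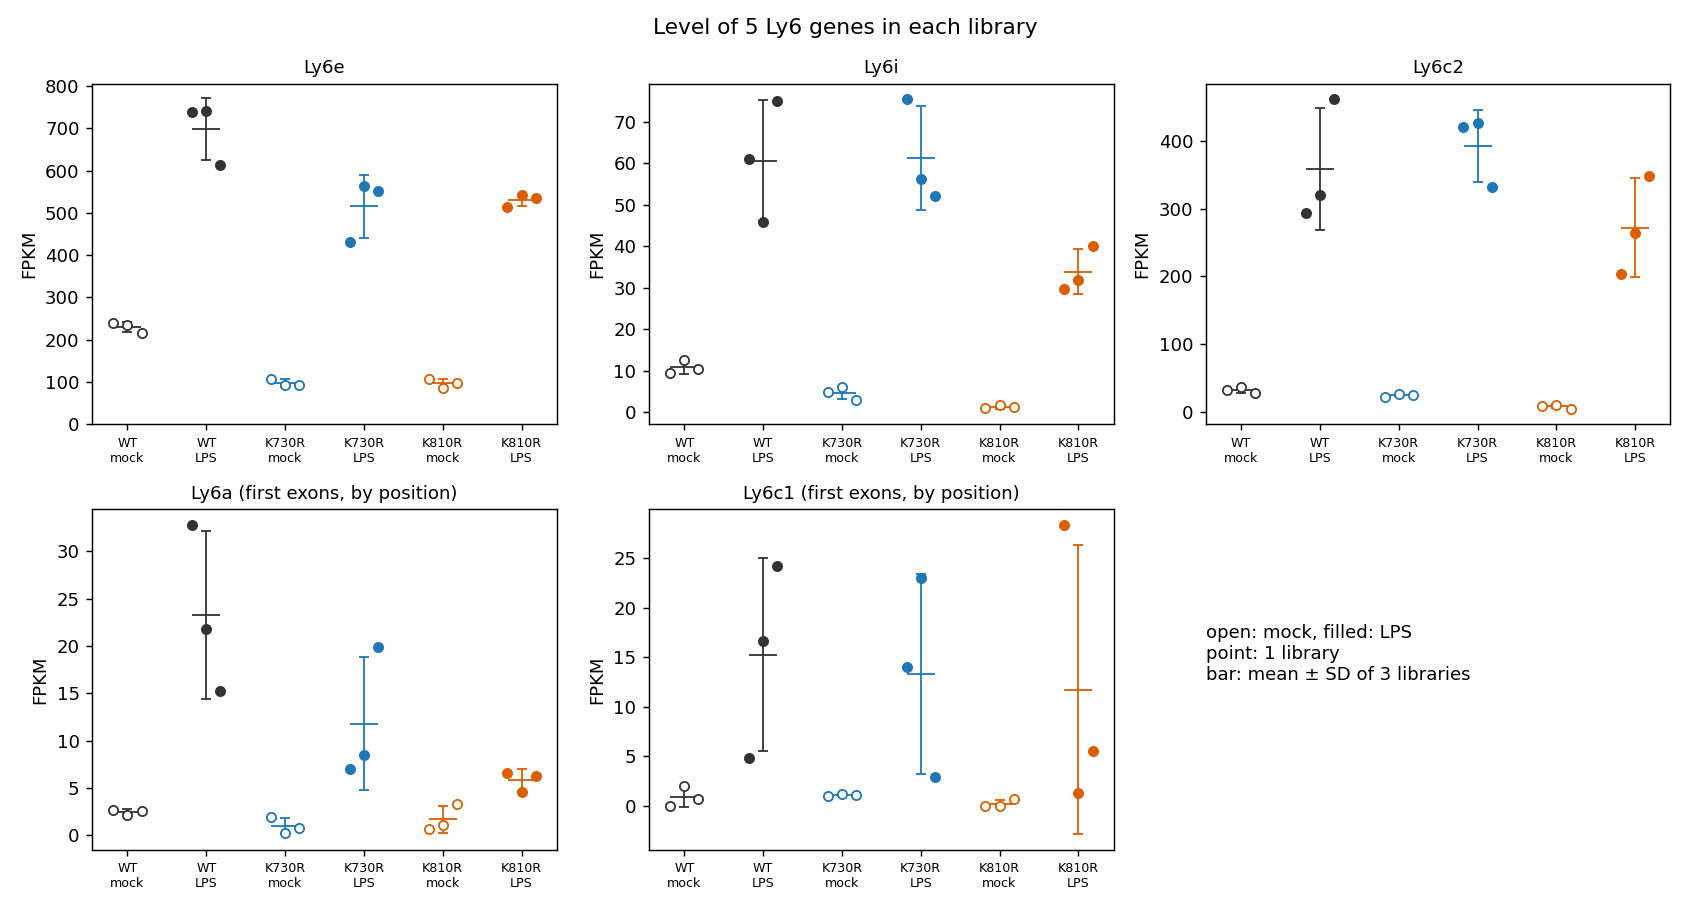
FPKM of the 5 Ly6 genes in each library (vertical axis, linear, a scale of its own in each panel) by genotype and treatment. Points are libraries, open for mock and filled for LPS, and bars are the mean ± SD of 3 libraries; Ly6a and Ly6c1 were read from first exons by position. For Ly6e the mock libraries of both mutants, at 84.2 to 107 FPKM, sit below those of TLR4-WT, at 216 to 239 FPKM.

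Ly6a and Ly6c1 were read from first-exon events that lie inside these genes, a choice made after seeing that no row bears their numbers. Ly6a, the Sca-1 gene, was at 2.70, 2.11 and 2.54 FPKM in mock-treated TLR4-WT and at 32.8, 21.8 and 15.3 FPKM after LPS. In TLR4-K730R it was at 1.91, 0.239 and 0.753 FPKM without LPS and at 7.01, 8.46 and 19.8 FPKM with it, and in TLR4-K810R at 0.690, 1.07 and 3.36 FPKM without and 6.64, 4.54 and 6.31 FPKM with it. After LPS the TLR4-K810R libraries lay below all libraries of the other genotypes, and without LPS those of TLR4-K730R lay below those of TLR4-WT while TLR4-K810R overlapped both. Ly6c1 was listed at 0 in 3 of the 18 libraries, all mock-treated, and at 1.98 FPKM or less in the other mock libraries. With LPS it varied within each group, with a range of 4.85 to 24.2 FPKM for TLR4-WT, of 2.89 to 23.0 FPKM for TLR4-K730R and of 1.25 to 28.4 FPKM for TLR4-K810R, and no order of the LPS groups can be read from it. A listing at 0 can be a failed estimate of the assembly.

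The response to LPS was compared within each genotype with limma, on log2(FPKM + 1), at an adjusted p below 0.01. In TLR4-WT the log2 difference was 1.60 for Ly6e (standard error 0.12), 2.37 for Ly6i (0.23) and 3.40 for Ly6c2 (0.24). In TLR4-K730R the log2 differences were 2.39, 3.48 and 3.91 in the same order, and in TLR4-K810R 2.46, 3.93 and 4.86, with the same standard errors. As ratios of mean FPKM, LPS-treated over mock-treated Ly6e was 3.04-fold for TLR4-WT, 5.29-fold for TLR4-K730R and 5.51-fold for TLR4-K810R. Ly6c2 was 11.0-fold, 15.6-fold and 32.0-fold higher in the same order. All 3 genes passed the threshold as higher in each genotype, and the share of all tested genes that did so was 10.4% for TLR4-WT, 9.32% for TLR4-K730R and 9.08% for TLR4-K810R. Since the genes were chosen from these values, nothing is read from that count. By position, the log2 difference of Ly6a was 2.76 for TLR4-WT, 2.65 for TLR4-K730R and 1.45 for TLR4-K810R (standard error 0.40), and that of Ly6c1 was 2.999 for the wild type, 2.43 for TLR4-K730R and 2.68 in TLR4-K810R (standard error 0.80). That of the wild type was 2.56 without LPS replicate 3.

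The median gene had a log2 difference after LPS of -0.28 in the wild type, and -0.36 (TLR4-K730R) or -0.26 (TLR4-K810R) in the mutants. The Ly6 differences thus stand somewhat further above the median gene than above 0. Median-of-ratios scaling brought these medians to -0.02, -0.04 and -0.04. It changed the calls after LPS from 1012 higher and 2316 lower to 1492 and 1379 for TLR4-WT. For TLR4-K730R they went from 905 and 2568 to 1490 and 1303, and for TLR4-K810R from 881 and 1916 to 1194 and 1132.

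Without LPS, the mutants were compared with TLR4-WT, which asks whether a changed lysine of TLR4 goes with a different resting level. Both comparisons share the TLR4-WT mock libraries. In TLR4-K810R, Ly6e was lower by a log2 difference of -1.25 (standard error 0.12), Ly6i by -2.36 (0.23) and Ly6c2 by -1.86 (0.24). In mean FPKM, TLR4-WT exceeded TLR4-K810R 2.39-fold for Ly6e, 8.25-fold for Ly6i and 3.82-fold for Ly6c2. In TLR4-K730R the log2 difference was -1.23 for Ly6e, -1.09 for Ly6i and -0.35 for Ly6c2. All 3 genes passed the threshold as lower in TLR4-K810R, where 0.649% of genes did, and 1 of 3, Ly6e, did in TLR4-K730R, where 0.216% did. In a fit of the compared groups alone Ly6c2 did not pass in TLR4-K810R. Over all genes that fit called 8 higher and 19 lower in TLR4-K810R, where the main fit called 90 and 63. In TLR4-K730R it called 9 and 11, where the main fit called 5 and 21. These contrasts were among the values the genes were chosen by, and nothing is read from the counts. Ly6a, by position, had log2 differences of -0.90 in TLR4-K730R and -0.47 in TLR4-K810R (standard error 0.40), and neither passed the threshold. Ly6c1, by position, had 0.28 in TLR4-K730R and -0.54 in TLR4-K810R (standard error 0.80), and neither passed.

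**Figure D2:**
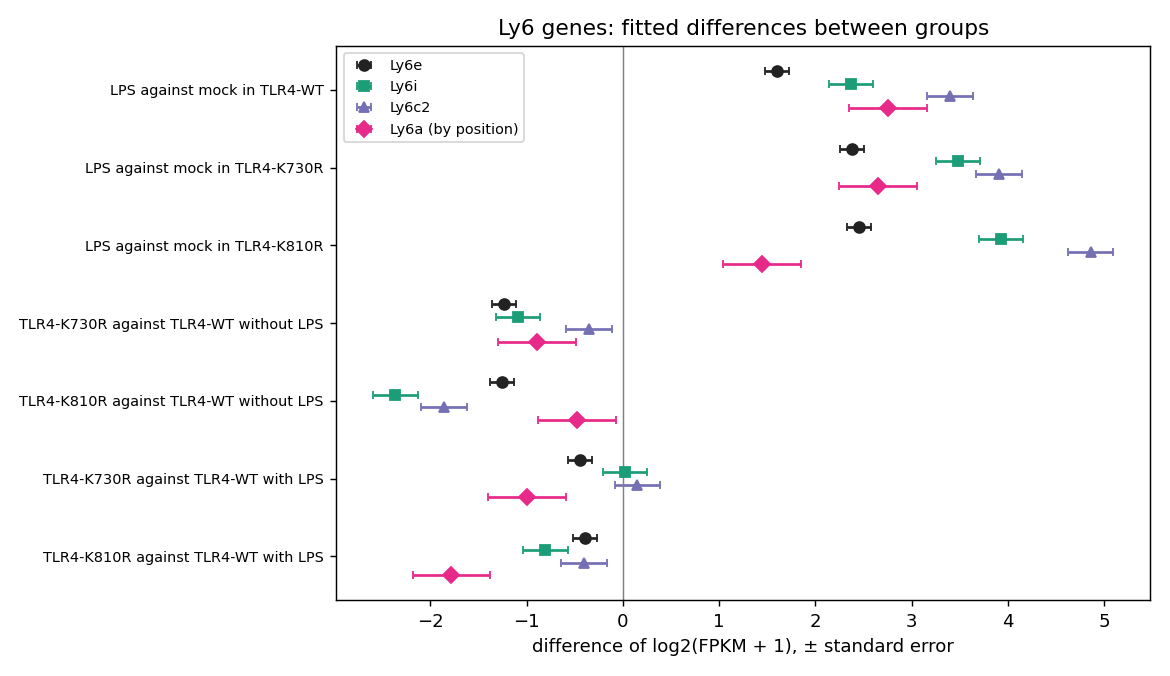
Fitted difference of log2(FPKM + 1) between groups (horizontal axis) with its standard error, for Ly6e, Ly6i, Ly6c2 and Ly6a (first exons by position) in 7 comparisons. In the LPS-against-mock comparisons all points lie above 0. In the mutant-against-TLR4-WT comparisons without LPS all lie below 0, down to -2.36 for Ly6i in TLR4-K810R. Ly6c1 is not drawn.

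With LPS, the log2 differences of Ly6e, Ly6i and Ly6c2 between the genotypes were smaller than without it. Ly6e was lower than in TLR4-WT by a log2 difference of -0.44 in TLR4-K730R and of -0.39 in TLR4-K810R, with no overlap of libraries between either mutant and TLR4-WT. Ly6i differed by 0.03 and -0.80, and Ly6c2 by 0.15 and -0.40. None of the 3 passed limma's threshold in either mutant, and nothing is read from this, since they were chosen by their levels in these libraries. The background was 0% of genes called in either direction in TLR4-K730R, where 746 genes had an unadjusted p below 0.05, and 0.134% in TLR4-K810R. Ly6a by position had a log2 difference of -1.78 in TLR4-K810R, further from TLR4-WT than without LPS, and its mean FPKM was 1.98-fold higher in TLR4-WT than in TLR4-K730R. Neither difference passed the threshold, though the one in TLR4-K810R passed in the alternative with library weights. The number of genes called in TLR4-K810R itself depended on the fit, with 5 higher and 8 lower here, 223 and 143 with library weights and 0 and 0 in a fit of the compared groups alone.

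The LPS response itself was compared between genotypes by an interaction term. Its log2 size exceeded that in TLR4-WT by 0.79 for Ly6e (standard error 0.18), 1.11 for Ly6i (0.32) and 0.50 for Ly6c2 (0.34) in TLR4-K730R. In TLR4-K810R it exceeded that of TLR4-WT by 0.86, 1.56 and 1.46. None of the 3 passed the threshold, and the background was 0.0412% of genes in TLR4-K730R and 0.124% in TLR4-K810R. Nothing is read from this, since the genes were chosen by their levels in these libraries. The larger ratios in the mutants go with lower mock levels, and on the log2 scale the LPS levels differed less than the mock levels for each of the 3 genes in both mutants. The 2 genes read by position went the other way. The term of Ly6a was -0.10 in TLR4-K730R and -1.31 in TLR4-K810R (standard error 0.57). That of Ly6c1 was -0.57 and -0.32 (standard error 1.13), and none of these passed the threshold.

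Ly6e was listed with 2 main first exons, both annotated, which the rule had added up. The long one spans chr15:74955071-74955717 (647 bases) and the short one chr15:74955051-74955335 (285 bases). In TLR4-WT the short exon had 12.8, 41.4 and 15.4 FPKM without LPS and 316, 308 and 276 FPKM with LPS. The long exon had 226, 190 and 198 FPKM without and 423, 434 and 338 FPKM with LPS. The share of the short exon was thus 5.38 to 17.8% in mock and 41.5 to 44.9% in LPS libraries of TLR4-WT. In TLR4-K810R the shares were 0.164 to 6.55% in mock and 34.2 to 39.8% in LPS libraries. TLR4-K730R had 8.04 to 11.0% in mock and a wide 19.2 to 43.7% in LPS libraries. In each genotype every LPS library had a larger share of the short exon than every mock library. Without LPS both exons were lower in the mutants, with no overlap with the wild type. The short exon had 8.63 to 10.2 FPKM (TLR4-K730R) and 0.161 to 5.52 FPKM (TLR4-K810R), and the long exon averaged 86.7 ± 7.95 FPKM (TLR4-K730R) and 93.2 ± 12.9 FPKM (TLR4-K810R), and 205 ± 18.7 FPKM in the wild type (SD, 3 libraries each). Both exons overlap over most of the short one, and how the assembly divided reads between them is not known.

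**Figure D3:**
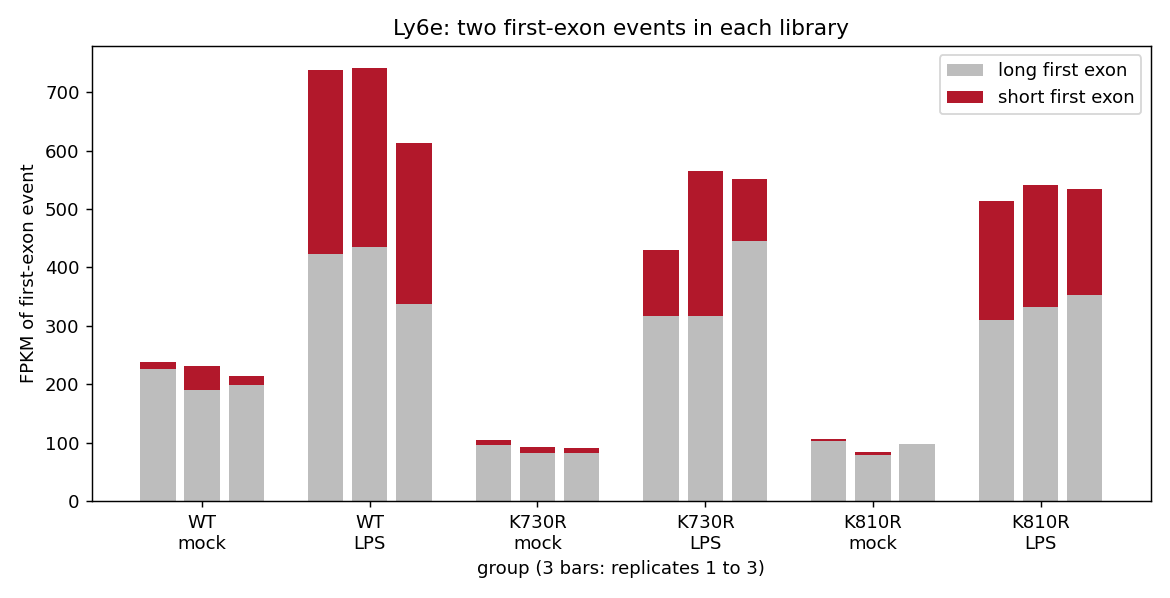
FPKM of the 2 main first-exon events of Ly6e in each library (stacked bars from 0, grey for the long and red for the short exon; 3 bars per group are replicates 1 to 3). The red part is small in mock libraries, at most 41.4 FPKM, and at least 105 FPKM in LPS libraries.

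For each of the 5 genes the 3 most alike profiles over the 18 libraries were found among the genes tested, by the root mean square difference of centred log2(FPKM + 1) values. The nearest to Ly6e were Parp12 (0.266), Dck (0.274) and Tor3a (0.276), against a spread of Ly6e itself of 1.16. The nearest to Ly6i were Oas2 (0.427), a sensor of double-stranded RNA, Ass1 (0.437), which makes argininosuccinate for arginine recycling, and H2-M2 (0.501), a class Ib MHC gene, against a spread of 1.80. The nearest to Ly6c2 were Clec4e (0.461), the receptor Mincle, Fpr3 (0.483) and Ass1 (0.523), against 2.13. The nearest to Ly6a were Cd69 (0.386), an early activation marker, Il18bp (0.433), which neutralizes interleukin-18, and Fcgr4 (0.439), an Fc receptor. Ly6c1 had no close profile, the nearest being Procr (0.731), 2500002B13Rik (0.807) and Slc1a2 (0.809), against its own spread of 1.66. Ly6e, Ly6i and Ly6c2 were not among one another's 3 nearest.

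The lists of interferon-stimulated, interferon signalling and GPI anchor genes were chosen with earlier results of these data known. Their counts and tests are therefore a description, and nothing is read from the counts. Interferon-stimulated genes, the group to which Ly6e is often counted, were listed apart, with 29 of 32 tested. Of these, 4 passed the filter only through LPS libraries and are left out of the counts after LPS. Among the other 25, 22 were higher with LPS for TLR4-WT, 25 for TLR4-K730R and 24 for TLR4-K810R. Of all tested genes 10.4%, 9.32% and 9.08% were called higher there. Without LPS 8 of the 29 were lower in TLR4-K730R and 14 in TLR4-K810R, where 0.216% and 0.649% of all genes were, with medians of -1.15 and -1.21 against 0.03 and 0.07 over all genes. Bst2, a GPI-anchored protein that tethers viruses to the cell, had the highest mean of the list over the 18 libraries (378 FPKM), though Rsad2 and Cxcl10 were above it in LPS-treated TLR4-WT and Samhd1 in mock-treated TLR4-K810R. Its mock-treated mean was 164 FPKM for TLR4-WT, 70.8 FPKM for TLR4-K730R (log2 difference -1.16, adjusted p = 0.00759 from limma) and 58.0 FPKM for TLR4-K810R (-1.44, adjusted p = 0.000421). The TLR4-K730R call of Bst2 was lost without each of 5 of the 6 libraries in turn (adjusted p from 0.0220 to 0.0515 in limma; it held without replicate 2 of the mock-treated wild type), with the replicate block (0.0178), without a filter (0.0141) and without the intensity trend (0.0111). In a fit of the compared groups alone the calls were lost in both TLR4-K730R (0.214) and TLR4-K810R (0.0725). Rsad2, which encodes the antiviral enzyme viperin, differed by -1.51 in TLR4-K730R (adjusted p = 0.0504 from limma, but 0.00265 with library weights and 0.00839 with the compared groups alone) and by -1.91 in TLR4-K810R (adjusted p = 0.00312, and 0.0104 to 0.0195 without any one of the 6 libraries). The chemokine gene Cxcl10 did not pass the threshold in either mutant without LPS, at -0.48 and -0.30 (adjusted p = 0.872 and 0.812 from limma).

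Of the interferon signalling genes, 12 of 14 were tested, and 2 were lower in each mutant without LPS (0.216% of all genes in TLR4-K730R and 0.649% in TLR4-K810R), with none higher. Both were the same genes, Irf7, the interferon regulatory factor that amplifies type I interferon, and Usp18, which removes ISG15 and dampens the receptor. Without LPS Irf7 averaged 110 FPKM for TLR4-WT, 14.8 FPKM for TLR4-K730R and 15.2 FPKM for TLR4-K810R (log2 differences -3.03 and -2.75, adjusted p = 0.000371 and 0.000388 from limma). Usp18 differed by -1.60 and -2.11 (adjusted p = 0.000217 and 4.39e-06 from limma). In a fit of the compared groups alone the calls of Irf7 were lost in TLR4-K730R (adjusted p = 0.137) and TLR4-K810R (0.0116), and that of Usp18 in TLR4-K730R (0.0128). After LPS 8 of the 12 were higher for TLR4-WT, 7 for TLR4-K730R and 8 for TLR4-K810R, against 10.4%, 9.32% and 9.08% of all genes. In the same order 1, 2 and 1 were lower, against 23.9%, 26.5% and 19.7% of all genes.

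Genes that build the GPI anchor, were tested for 25 of 30 members. Without LPS none was called in either mutant. Of all genes, 0.0515% (TLR4-K730R) and 0.927% (TLR4-K810R) were called higher there, and 0.216% and 0.649% lower. After LPS 1 was higher in each genotype, where 10.4%, 9.32% and 9.08% of all genes were higher for TLR4-WT, TLR4-K730R and TLR4-K810R. In the same order 6, 5 and 3 were lower, where 23.9%, 26.5% and 19.7% of all genes were lower. Pgap2, which remodels the lipid of the anchor, was the one that rose, with log2 differences of 1.44, 1.68 and 1.75 (adjusted p = 2.41e-05, 4.75e-06 and 3.60e-06 from limma). Pigt, a subunit of the transamidase that attaches the anchor, fell by 0.68, 0.51 and 0.51. Under median-of-ratios scaling 3, 1 and 0 of the list were lower, where 1379, 1303 and 1132 of all 9707 genes were. Pigt was not among those called (adjusted p = 0.0139, 0.463 and 0.0969 from limma).

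**Figure D4:**
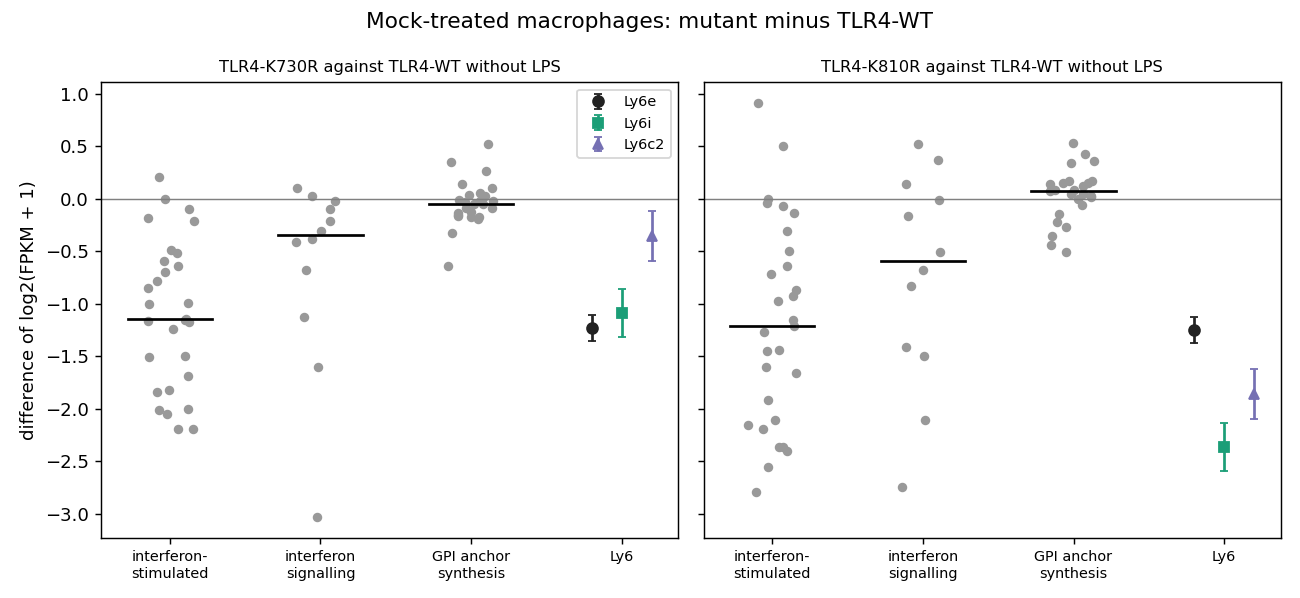
Difference of log2(FPKM + 1) of each mutant from TLR4-WT without LPS (vertical axis) for genes of 3 lists, as grey points with the median as a line, and for Ly6e, Ly6i and Ly6c2 with standard errors. The interferon-stimulated genes have medians of -1.15 and -1.21 and the GPI anchor genes of -0.05 and 0.08.

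Of 38 other genes of the Ly6/uPAR family, 13 had a value and 4 passed the filter, Plaur, Cd59a, Lypd8 and Ly6d. Plaur, the urokinase receptor of macrophages, was the most abundant and rose after LPS in each genotype. It went from 167, 152 and 177 FPKM to 255, 284 and 320 FPKM in TLR4-WT, a log2 rise of 0.79 (limma, adjusted p = 0.000211). The log2 difference was 1.31 in TLR4-K730R (adjusted p = 1.03e-06 from limma) and 0.92 in TLR4-K810R (adjusted p = 5.84e-05). Without LPS Plaur differed from TLR4-WT by -0.12 in TLR4-K730R and -0.09 in TLR4-K810R, short of the threshold (adjusted p = 0.924 and 0.839 from limma).

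Cd59a, which blocks the membrane attack complex of complement, was low, at 1.15, 1.20 and 1.62 FPKM in mock-treated and 0.495, 0.640 and 0.713 FPKM in LPS-treated TLR4-WT. The mutants had lower values with LPS too, 0.841 to 1.16 FPKM without and 0.230 to 0.271 FPKM with LPS in TLR4-K730R, and 1.01 to 1.25 FPKM without and 0.346 to 0.547 FPKM with LPS in TLR4-K810R. Mock and LPS libraries did not overlap in any genotype, but every LPS library lay below 1 FPKM and the gene passed the filter through the mock libraries, so no test of this difference is given. Ly6d, known from early B cells and lying upstream of Ly6e, reached 3.12 FPKM at most, and its log2 differences after LPS of 0.51, 0.25 and 0.41 did not pass the threshold (adjusted p = 0.0543, 0.334 and 0.129 from limma). It passed in TLR4-WT under median-of-ratios scaling (adjusted p = 0.00993) and, under quantile normalization, in TLR4-WT (0.00563) and TLR4-K810R (0.00883).

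Lypd8, a secreted family member of the gut epithelium that binds flagellated bacteria, was listed at 0 in all 3 mock-treated TLR4-WT libraries. It was at 12.1, 7.77 and 7.11 FPKM in mock-treated TLR4-K730R and at 9.01, 5.76 and 20.7 FPKM in mock-treated TLR4-K810R. Since it passed the filter through the mutant libraries, where it is high, no test of this difference is given. With LPS it was at 6.79, 7.87 and 7.47 FPKM in TLR4-K730R and at 3.13, 0 and 0 FPKM in TLR4-K810R. A list of 12 intestinal genes, 10 of them with a value and put together with earlier results known, was read beside it. Their summed level was 0.118 to 0.594 FPKM in TLR4-WT mock, 8.56 to 39.6 FPKM in TLR4-K730R mock, and 12.0 to 56.3 FPKM in TLR4-K810R mock. With LPS it was 0 to 11.7 FPKM in TLR4-WT, 0.127 to 5.47 FPKM in TLR4-K810R and 10.9 to 15.2 FPKM in TLR4-K730R. Lgals4, a gut galectin, averaged 0.316 FPKM in TLR4-WT mock, 15.1 FPKM in TLR4-K730R mock and 14.1 FPKM in TLR4-K810R mock, and Fabp1, a fatty acid binding protein of enterocytes, 0, 5.51 and 5.91 FPKM. The intestinal factor Cdx1 was listed at 0 in 17 of 18 libraries. The part of gut RNA in the Lypd8 values was not tested.

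**Figure D5:**
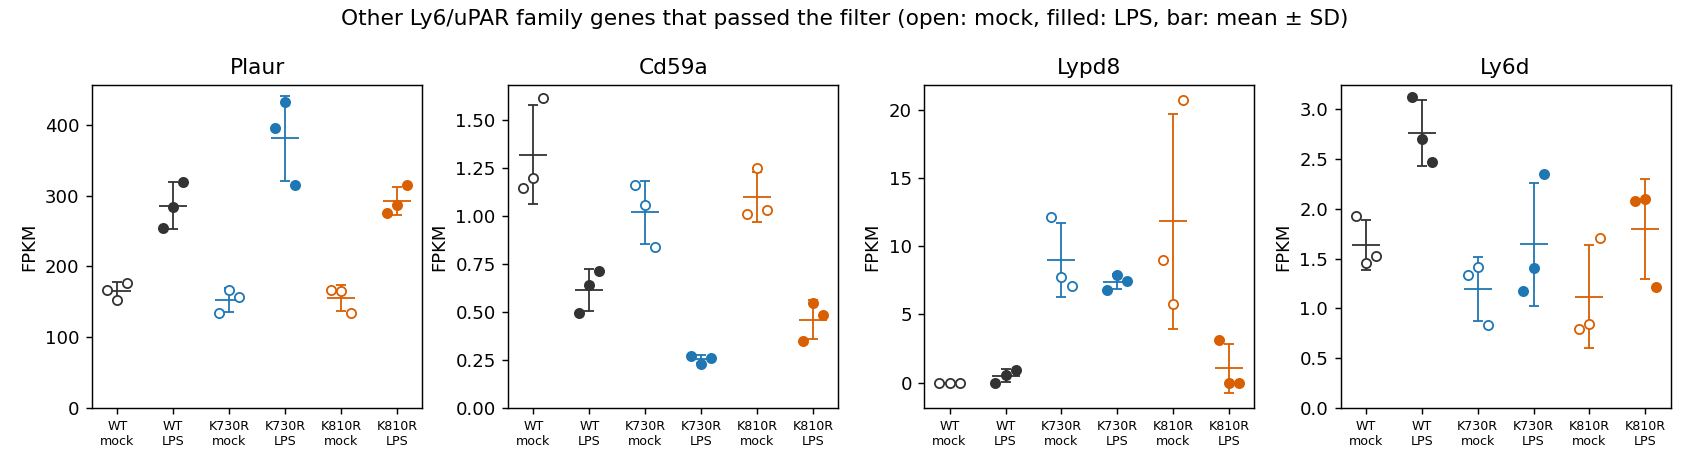
FPKM of the 4 other Ly6/uPAR family genes that passed the filter (vertical axis, linear, own scale per panel) by genotype and treatment. Points are libraries, open for mock and filled for LPS, and bars are the mean ± SD of 3 libraries; Lypd8 is at 0 in mock-treated TLR4-WT and at 5.76 to 20.7 FPKM in the mock-treated mutants.

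Of 24 protein-coding genes within 500000 bases on either side, 2 were tested, Ly6d and Them6. Them6, a thioesterase-like gene, was lower after LPS in TLR4-WT and TLR4-K730R by log2 differences of -0.80 and -0.82 (adjusted p = 0.00231 and 0.00186 from limma) and did not pass in TLR4-K810R at -0.60 (adjusted p = 0.0168). Under median-of-ratios scaling both calls were lost (adjusted p = 0.0205 and 0.0245 from limma), as with quantile normalization (0.0581 and 0.119) and with the compared groups alone (0.0125 and 0.0190), while with library weights Them6 also passed in TLR4-K810R (0.00877). Calls were lost too without 2 libraries in turn in TLR4-WT (0.0140 without mock replicate 3, 0.0148 without LPS replicate 1) and without mock replicate 2 in TLR4-K730R (0.0131). Ly6g, the neutrophil antigen beside Ly6c2, was listed at 0 in 13 of 18 libraries and reached 0.644 FPKM at most.

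Other cell types carry Ly6 genes too, and in bulk libraries fewer cells of a type and less RNA per cell cannot be told apart. Of 12 monocyte genes, 11 had a value, and their summed level in mock libraries ran from 692 to 721 FPKM for TLR4-WT, from 1030 to 1051 FPKM for TLR4-K730R and from 644 to 924 FPKM for TLR4-K810R, most of it from Fn1 and Hp. Ccr2, the receptor of Ly-6C-high monocytes, averaged 2.24 FPKM in TLR4-WT mock and 4.27 FPKM in TLR4-K810R mock. The list went both ways there, with 5 of its 9 tested genes above TLR4-WT by log2 difference. After LPS the summed monocyte level ran from 1090 to 1789 FPKM for TLR4-WT, from 1147 to 1528 FPKM for TLR4-K730R and from 1940 to 2076 FPKM for TLR4-K810R. Of 10 neutrophil genes, 9 had a value, with sums of 72.6 to 99.0 FPKM in mock and 224 to 295 FPKM in LPS libraries, mostly S100a8 and Csf3r, while Ngp and Cxcr2 were at 0 in 16 and 17 libraries. The others went both ways. Camp, a granule protein, averaged at most 0.327 FPKM in the mock groups, and 4.51, 4.92 and 4.30 FPKM with LPS in TLR4-WT, TLR4-K730R and TLR4-K810R. Mmp8, neutrophil collagenase, averaged 10.8 and 11.8 FPKM without and 6.62 and 7.87 FPKM with LPS in TLR4-WT and TLR4-K730R, and its mean was lower with LPS in TLR4-K810R as well. The part of monocytes and neutrophils in the Ly6 values after LPS was not tested.

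T cell genes summed to 46.0 to 94.6 FPKM in mock and 21.3 to 66.5 FPKM in LPS libraries, nearly all from Il7r, and Cd3e was at 0 in 17 of 18 libraries. B cell genes summed to 7.44 to 24.4 FPKM in mock and 4.48 to 8.05 FPKM in LPS libraries, mostly Cd22. Endothelial genes, 7 of 10 with a value, summed to 1.41 to 3.66 FPKM in mock and 2.45 to 6.90 FPKM in LPS libraries, and Emcn was at 0 in 17. Genes of plasmacytoid dendritic cells, 4 of 6 with a value, summed to 3.85 to 9.01 FPKM in mock and 6.22 to 19.2 FPKM in LPS libraries, mainly Tcf4. Resident peritoneal macrophage genes summed to 16.8 to 20.7 FPKM in TLR4-WT mock, 8.92 to 12.3 FPKM in TLR4-K730R mock and 11.3 to 20.9 FPKM in TLR4-K810R mock. Mesothelial and fibroblast genes, 9 of 10 with a value, summed to 32.6 to 49.1 FPKM in TLR4-WT mock, 59.8 to 69.4 FPKM in TLR4-K730R mock and 118 to 286 FPKM in TLR4-K810R mock. Of the 7 tested, 4 were called higher in mock-treated TLR4-K810R (0.927% of all genes), where the Ly6 values were lowest or overlapped those of TLR4-K730R, and the part of such cells in the lower Ly6 values was not tested.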

How the data were processed

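RNA from 18 macrophage libraries was sequenced by the submitters. The deposited tables hold transcript events with FPKM values, which the authors had computed and normalized before deposit. The aligner and assembler are not given in the sources used here. The submitters' processing notes name a human build (hg18), but the rows carry mouse Ensembl numbers, and 92.0% of rows overlapped the named gene in GRCm38. Per gene, FPKM of first-exon events and of last-exon events inside the gene were each summed, and the higher sum was used. Rows outside were dropped, with 6.24% of that FPKM. Genes with at least 1 FPKM in 3 libraries were tested with limma 3.58.1 (R 4.3.3, intensity trend) on log2(FPKM + 1), all 6 groups in one fit, Benjamini-Hochberg adjusted, threshold 0.01 as in the study's methods. The pseudocount understates changes of low genes. The fit was tested on simulated data. Members and lists were chosen with earlier results of these data known. Genes named beyond the members are relatives called or with the 3 highest mean levels, the most abundant of each list, and the 3 most alike profiles, with marker genes (Cdx1 and others), Them6 and Ly6g named after their values were seen. Alternatives covered pseudocount, filter, scaling, weights, the replicate block, the groups fitted, the events summed and left-out libraries. Numbers did not pair the samples (45 same-number correlations, -0.32 to 0.0993).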

Additional observations from a re-analysis of the deposited data

How the results depend on the processing

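For Ly6e, Ly6i and Ly6c2, 690 alternative values counted as unchanged. A log2 difference counted so where it kept its direction and side of the threshold. A count of genes called did so where it stayed close, so that a fall from 3 to 2 counted as unchanged. The exceptions are these. The log2 difference of Ly6i between LPS-treated TLR4-K730R and TLR4-WT ranged from -0.16 to 0.19 over the fits that left a library out, with -0.16 when replicate 2 of the LPS-treated wild type was left out and -0.13 when replicate 1 of LPS-treated TLR4-K730R was, and Ly6c2 (-1.86) in mock-treated TLR4-K810R was no longer called in a fit of the compared groups alone. The count of the 3 genes called in mock-treated TLR4-K730R was 0 with last-exon sums only, which hold no tested Ly6e value, and 2 at a threshold of 0.05, where the interaction count for TLR4-K810R was also 2. The log2 difference of Plaur in mock-treated TLR4-K810R was between -0.15 and 0.011 with a library left out, and above 0 only without replicate 3 of that group. Counts of relatives include Cd59a and Lypd8, which passed the filter through the groups where they are high, and carry no weight. Of the relatives, 2 were called after LPS in TLR4-WT, and 1 with a pseudocount of 0.1, a filter of 5 FPKM, the replicate block or the compared groups alone, and 1 to 2 with a library left out. In TLR4-K730R 1 was called with the filter of 5 FPKM or quantile normalization, and in TLR4-K810R 1 with the compared groups alone. Without LPS the count was 0 in TLR4-K730R with any one of the 6 compared libraries left out, and 0 in TLR4-K810R with the compared groups alone. The interaction count of relatives in TLR4-K810R was 1 at 0.05 and 0 to 1 with a library left out (1 without replicate 1 of LPS-treated TLR4-K810R). The replicate block changed no other call of a member with its own rows. Ly6a, by position, lost its call after LPS in TLR4-K810R with a pseudocount of 0.1 and without 5 of 6 libraries (1.17 to 1.59), and passed against the wild type with LPS in TLR4-K810R with library weights. Ly6c1 lost its call in TLR4-WT with the block and without 4 of 6 libraries (mock replicates 1 and 3, LPS replicates 2 and 3), and gained one in TLR4-K730R with library weights or without LPS replicate 3, and in TLR4-K810R with a pseudocount of 0.1 or without LPS replicate 2. Depth is unknown, so low values such as those of Ly6c1 and Ly6i in mock-treated TLR4-K810R have no counting error.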
